A study of Mus musculus with 4 samples.

Results

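The mitochondrial genome of the mouse is a small circle that encodes its own ribosomal RNAs, a set of tRNAs and a few membrane proteins of the respiratory chain. Its transcripts were taken as all genes whose symbol starts with mt-, which gave 37 of the 55367 genes in the count tables: 13 protein-coding genes, 2 rRNA genes and 22 tRNA genes. Each of them also lies on the mitochondrial chromosome of GENCODE M21, the GRCm38/mm10 annotation used here. RNA of 4 libraries was compared, 2 labeled WT and 2 labeled KO and numbered 1 and 2 in each group. Per the labels, the cells were CD45.2+CD8+ and came from dissociated B16-F10 tumors, B16-F10 being a transplantable mouse melanoma line, and the RNA was polyadenylated. The series belongs to a study of Satb1, which encodes a nuclear organizer of chromatin in T cells, in tumor-infiltrating lymphocytes. Its design text names 2 floxed genotypes beside WT: Satb1 F/F with ThPOK-cre, a driver of the CD4 lineage, and Satb1 F/F with E8I-cre, a driver of CD8+ T cells. The labels do not tell which driver the KO libraries carry, nor age, strain, sex, host genotype of the tumor, or whether mice were pooled. Nothing states that the libraries of a group came from separate mice, so p-values measure only the spread between these libraries.

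Both strands of the circle are transcribed into long precursors, and the tRNAs that punctuate them are cut out to release the mRNAs and rRNAs in between. Most genes are read from 1 strand, and the other strand carries mt-Nd6 and a minority of the tRNAs. The mRNAs carry short poly(A) tails, which in several genes complete the stop codon. The 13 proteins are core subunits of complexes I, III and IV and of the ATP synthase, complex V, and all other subunits, the polymerase, the ribosomal proteins and the tRNA synthetases are imported from nuclear genes.

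The libraries held 4017875 and 4261025 gene counts under the label WT and 4479734 and 5382915 under the label KO. Where a sentence gives 4 values in library order, they stand for WT 1, WT 2, KO 1, KO 2. Satb1 went against the labels, with 7, 5, 131 and 55 counts in library order, so all directions below are those of the libraries as labeled. Xist, the RNA of the silenced X chromosome in females, had 435, 216, 0 and 3 counts in library order, and the Y-linked Ddx3y had 0, 0, 188 and 81, so sex and group cannot be told apart. The 10 T cell markers, Cd3e and Cd8a among them, held 0.00672%, 0.0106%, 0.244% and 0.123% of gene counts in library order. None of these 10 was at 0 in any library, but the 13 macrophage or monocyte markers held from 2.37% to 4.08%, more than the T cell markers in all 4 libraries and against the labeled sort. The 8 dendritic cell markers held 0.0106% to 0.0562%. In bulk RNA of this kind, fewer cells of a type and less RNA per cell cannot be told apart.

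The sequences of several members bear on how they could be counted, and are given as they stand in GENCODE M21, 5′ to 3′ along the transcript. The tRNA genes with the most counts were mt-Ts1 (tRNA-Ser), mt-Tp (tRNA-Pro) and mt-Tq (tRNA-Gln). They are shown because they carried most of the counts on tRNA genes, with the anticodon in capitals.
mt-Ts1 (chrM:6870-6938, minus strand): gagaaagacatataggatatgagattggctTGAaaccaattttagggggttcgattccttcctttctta
mt-Tp (chrM:15356-15422, minus strand): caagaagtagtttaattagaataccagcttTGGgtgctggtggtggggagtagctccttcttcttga
mt-Tq (chrM:3772-3842, minus strand): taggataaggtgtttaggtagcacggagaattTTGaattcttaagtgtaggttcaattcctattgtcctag
All 3 are read from the strand opposite to the rRNA genes and most protein genes.

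The last bases of mt-Co3, mt-Nd4 and mt-Cytb are shown because the genome encodes only the first base of their stop codon, here in capitals, so that a complete stop codon exists only in the polyadenylated mRNA.
mt-Co3 end (chrM:9361-9390, plus strand): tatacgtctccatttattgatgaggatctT
mt-Nd4 end (chrM:11515-11544, plus strand): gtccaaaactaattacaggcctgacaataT
mt-Cytb end (chrM:15259-15288, plus strand): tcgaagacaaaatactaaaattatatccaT
The other 10 protein genes end in a complete TAA or TAG. Their start codons are ATG except in mt-Nd1 (GTG), mt-Nd2 (ATA), mt-Nd3 (ATT) and mt-Nd5 (ATC).

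A pair of neighbors on the plus strand overlap, which matters because a read that touches both genes is ambiguous to a counter. The last 43 bases of mt-Atp8, which encodes a small membrane subunit of the ATP synthase, are also the first bases of mt-Atp6 (capitals).
mt-Atp8 (chrM:7766-7969, plus strand): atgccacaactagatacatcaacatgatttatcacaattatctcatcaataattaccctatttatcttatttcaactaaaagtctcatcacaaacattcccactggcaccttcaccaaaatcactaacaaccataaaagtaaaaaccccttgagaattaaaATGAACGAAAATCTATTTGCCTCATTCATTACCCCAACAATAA
The last 7 bases of mt-Nd4l likewise open mt-Nd4.
mt-Nd4l end (chrM:10134-10173, plus strand): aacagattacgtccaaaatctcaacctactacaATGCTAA
mt-Nd4 start (chrM:10167-10206, plus strand): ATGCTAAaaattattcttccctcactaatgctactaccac
These short upstream genes were the 2 protein genes with almost no counts, and the part of the overlaps in this was not tested: mt-Atp8 had 0 in all 4 libraries, and mt-Nd4l had 1 count in WT 2 and 0 in the others.

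A stretch of nuclear chromosome 1 holds a near-identical copy of a part of the circle. The aligned part of the annotated copies runs from base 24611535 to base 24616188 of the minus strand of chromosome 1 and matches chrM from base 6390, inside mt-Co1, to base 11042, inside mt-Nd4. The nuclear interval is 4654 bases long and the mitochondrial one 4653 bases. It has 7 annotated copies, each at least 99% identical to its member: Gm29216 (the last 483 bases of mt-Co1), Gm28661 (mt-Co2), Gm10925 (mt-Atp6), Gm28437 (mt-Co3), Gm28438 (mt-Nd3), Gm10222 (mt-Nd4l) and Gm28439 (the first 876 bases of mt-Nd4). Over all aligned bases of these pairs only 2 differed, A1066T between mt-Co1 and Gm29216 and T3C between mt-Nd3 and Gm28438, with positions counted from 1 at the start of the mitochondrial gene. The bases around both are shown with the differing base in capitals, since they are the annotated differences by which a read could be placed; the first pair starts where the alignment starts.
mt-Co1 around A1066T (chrM:6390-6413, plus strand): ggaAttgttttatccaactcatcc
Gm29216 around A1066T (chr1:24616165-24616188, minus strand): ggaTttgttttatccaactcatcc
mt-Nd3 around T3C (chrM:9459-9481, plus strand): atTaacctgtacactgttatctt
Gm28438 around T3C (chr1:24613097-24613119, minus strand): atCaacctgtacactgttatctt
The place of mt-Atp8 within the interval has no annotated transcript on chromosome 1, and its bases there were not analysed here.

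The 37 genes together received 17558, 22263, 47123 and 16013 counts in library order. As a share of gene counts this was 0.437% in WT 1, with an exact Clopper-Pearson 95% interval from 0.431% to 0.443%, and 0.522% in WT 2, with an interval from 0.516% to 0.529%. The share was 1.05% in KO 1 (1.04% to 1.06%) and 0.297% in KO 2 (0.293% to 0.302%). Both extremes were thus in libraries labeled KO, the highest 3.54 times the lowest, and both libraries labeled WT lay between them. The mean share was 0.480% ± 0.0604 (SD, n = 2) under the label WT and 0.675% ± 0.533 (SD, n = 2) under the label KO. The difference of 0.195 percentage points was smaller than the spread within KO (two-sided exact permutation test, p = 1, where 2 against 2 libraries cannot give a p below 0.333). Without KO 1 the difference was -0.182 percentage points and without KO 2 it was 0.572. These intervals hold for counting error alone: the libraries had no molecular identifiers, and reads of 1 molecule can repeat. Reads with several alignments, described with the nuclear copies below, are in none of these shares.

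Other features also set KO 1 or KO 2 apart, and their part in the result was not tested. KO 1, with the highest mitochondrial share, also had the highest shares on the 8 melanoma markers (0.0226%, 0.0268%, 0.239% and 0.132% in library order) and on the 6 fibroblast or endothelium markers (0.00204%, 0.00178%, 0.148% and 0.0203%). On both lists KO 2, with the lowest mitochondrial share, came next after KO 1. Of the 8 melanoma markers none was at 0 in any library, and of the 6 fibroblast or endothelium markers 2, 3, 0 and 1 were at 0 in the same order. KO 2 had the highest share on the 14 dissociation stress genes, at 1.43% against 0.690% to 0.726% in the other libraries, with none of them at 0. It also had the lowest share of reads that did not align, at 30.3% against 41.2% to 44.2%.

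**Figure D1:**
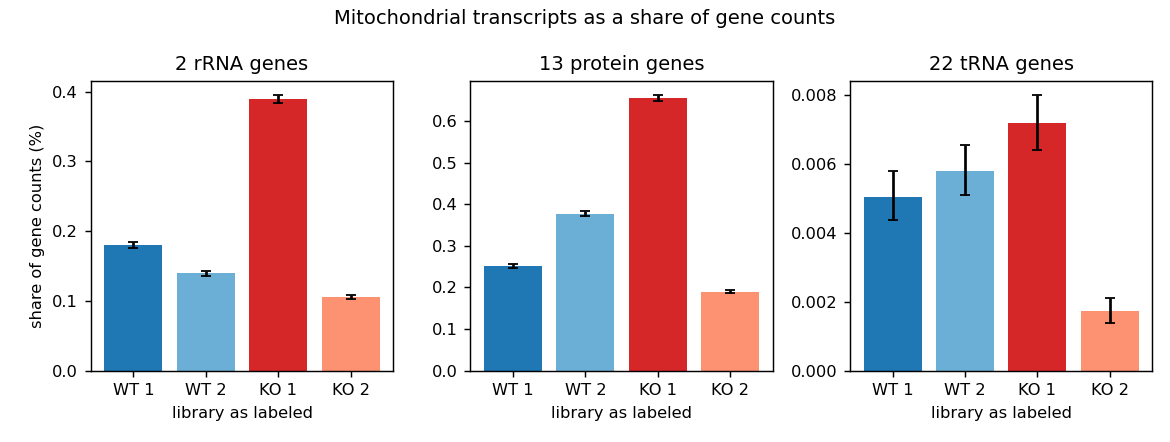
Share of gene counts (%) on the 2 rRNA, 13 protein and 22 tRNA genes of the mitochondrial genome in each library, with exact 95% binomial intervals for counting error. In all 3 classes KO 1 was the highest library and KO 2 the lowest.

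The order of the libraries was nearly the same in the 3 classes. The rRNA genes took 0.180%, 0.140%, 0.390% and 0.106% of gene counts in library order. The protein genes took 0.252%, 0.377%, 0.655% and 0.190%, and the tRNA genes 0.00505%, 0.00580%, 0.00719% and 0.00173%. KO 1 was the highest and KO 2 the lowest in each class, and WT 1 and WT 2 changed places between rRNA and the others. The exact permutation p was 1 for each class.

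Across all tested genes, the groups were set against each other with edgeR's quasi-likelihood test, with p-values adjusted over all 11837 genes by the Benjamini-Hochberg method at a threshold of 0.05. Of the 37 members 15 had enough counts to be tested: 11 protein genes, both rRNA genes, mt-Ts1 and mt-Tp. None of the 15 was past the threshold, against 0.574% of all genes tested, and 0 had an unadjusted p under 0.05; DESeq2 also called 0, with 0 at an unadjusted p under 0.05. The edgeR adjusted p ranged from 0.425 to 0.998. Of the log2 fold changes 8 were above 0 and 7 below, from -0.93 for mt-Ts1 to 1.40 for mt-Atp6. The median over the 11 tested protein genes was 0.19, beside a median of 0.05 over all genes tested. In CPM normalized by TMM, counts scaled to a fixed library total, the groups overlapped for 14 of the 15 members, while they did not overlap for 47.9% of all genes tested. Within the KO label the members moved together: 12 of the 15 were highest in KO 1 and lowest in KO 2, an order found in 9.84% of all genes tested.

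The directions changed when single libraries were left out. Without KO 1 all 15 tested members had a log2 fold change below 0, and the median over the protein genes was -1.02. Without KO 2 it was 0.95, and 14 of the 15 were above 0, all but mt-Ts1. One member was past the threshold in each of these comparisons of 3 libraries, mt-Ts1 without KO 1 (log2 fold change -2.47, edgeR adjusted p = 0.0389) and mt-Atp6 without KO 2 (2.10, edgeR adjusted p = 0.0233). Of all genes tested, 0.998% were past it without KO 1 and 9.71% without KO 2.

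**Figure D2:**
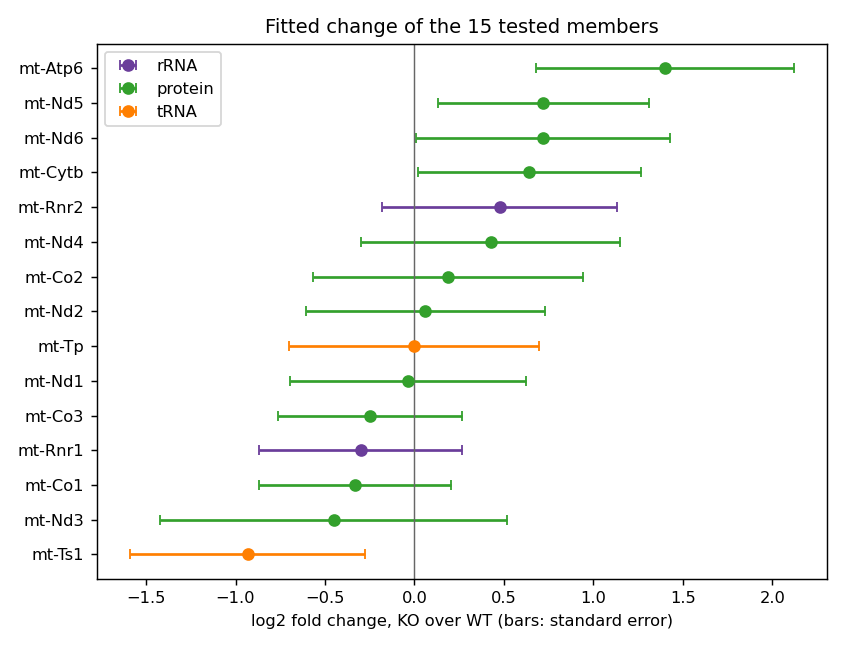
Log2 fold change of KO over WT for the 15 tested members, with the standard error as bars and color by class. The values run from -0.93 (mt-Ts1) to 1.40 (mt-Atp6), and no member was past the threshold.

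The 2 rRNA genes encode the RNAs of the small and the large subunit of the mitochondrial ribosome and are neighbors on the plus strand. mt-Rnr1, the small subunit rRNA (chromosome M, 70 to 1024), had 2704, 1995, 3973 and 1747 counts in library order. mt-Rnr2, the large subunit rRNA (chromosome M, 1094 to 2675), had 4521, 3960, 13483 and 3958. KO 1 had the most raw counts in both. In normalized CPM, mt-Rnr1 was at 813, 494, 756 and 305, highest in WT 1, and mt-Rnr2 at 1359, 981, 2565 and 691, highest in KO 1. By group, mt-Rnr1 had 653 ± 225 (SD, n = 2) under the label WT and 530 ± 319 (SD, n = 2) under the label KO, and mt-Rnr2 had 1170 ± 267 (SD, n = 2) and 1628 ± 1326 (SD, n = 2). The log2 fold change was -0.30 (standard error, SE, 0.57) for mt-Rnr1 and 0.48 (SE 0.66) for mt-Rnr2, and edgeR gave adjusted p = 0.849 and 0.785. The groups overlapped for both.

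Of the 7 mitochondrial subunits of complex I, which passes electrons from NADH to ubiquinone, mt-Nd1 was the most abundant, with 2205, 3771, 6592 and 1748 counts in library order. mt-Nd2 had 587, 1100, 2032 and 469 counts, and mt-Nd4 had 798, 1375, 3514 and 636. In these 3 genes the libraries stood in 1 order, KO 1 above WT 2, WT 1 and KO 2. mt-Nd5 had 227, 575, 1350 and 518 counts, and mt-Nd6, the one protein gene of the minus strand, had 150, 416, 1070 and 232. mt-Nd3 had 16, 21, 34 and 5. The log2 fold changes of mt-Nd5 and mt-Nd6 were both 0.72 (SE 0.59 and 0.71), and edgeR gave adjusted p = 0.615 and 0.689. Those of mt-Nd1, mt-Nd2 and mt-Nd4 were -0.03, 0.06 and 0.43, with SEs between 0.66 and 0.73.

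mt-Cytb (chromosome M, 14145 to 15288), the only subunit of complex III encoded in the mitochondrion, had 1219, 2209, 5798 and 1843 counts in the same order. Its normalized CPM was 457 ± 128 (SD, n = 2) under the label WT and 712 ± 553 (SD, n = 2) under the label KO, which is 0.64 in log2 fold change (SE 0.62, edgeR adjusted p = 0.683). KO 2 lay below both libraries labeled WT in normalized CPM and KO 1 above them.

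The 3 mitochondrial subunits of complex IV, cytochrome c oxidase, differed widely in counts. mt-Co1, the catalytic subunit (chromosome M, 5328 to 6872), had 4683, 6251, 8194 and 4536 counts, the most of the protein genes in every library. mt-Co2, which takes up electrons from cytochrome c, had 65, 82, 207 and 35, and mt-Co3 had 144, 216, 303 and 137. mt-Co1 varied less than most members: its normalized CPM was 1478 ± 99.4 (SD, n = 2) under the label WT and 1175 ± 543 (SD, n = 2) under the label KO, which is -0.33 in log2 fold change (SE 0.54, edgeR adjusted p = 0.819).

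Of the subunits of complex V, mt-Atp6, which forms part of the proton channel, had 36, 44, 251 and 56 counts. Its normalized CPM was 10.8, 10.9, 47.8 and 9.77, so the log2 fold change of 1.40 (SE 0.72, edgeR adjusted p = 0.425) came from KO 1 alone, and without KO 1 it was -0.16. The groups overlapped, because KO 2 lay below both libraries labeled WT.

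The tRNA genes, which encode short adaptor RNAs without poly(A) tails in their mature form, were the least counted class. Of the 22 genes 13 had 0 counts in all libraries; a count of 3, the most that a count of 0 allows, is 0.524 to 0.902 normalized CPM. mt-Ts1 held most of the counts of the class, with 170, 199, 229 and 52 in library order. Its normalized CPM was 51.1, 49.3, 43.6 and 9.08, the only tested member whose groups did not overlap, with KO 1 close to the libraries labeled WT and KO 2 far below. The log2 fold change was -0.93 (SE 0.66, edgeR adjusted p = 0.553), and -0.24 without KO 2. mt-Tp had 21, 32, 51 and 26 counts and mt-Tq 2, 9, 20 and 5, both given after their values were seen. The other 6 tRNA genes with any count had at most 7 in a library.

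The tRNA counts followed the strand. Of 865 counts on tRNA genes 846 were on the 8 genes of the minus strand, of which 7 had a count, and 19 were on 2 of the 14 genes of the plus strand, mt-Tw and mt-Tt. The strand setting of the counting is not stated, and the tables themselves bear on it. Of 426 genes that lie wholly within exons of a gene on the opposite strand 208 (48.8%) had a count, against 1 of 626 genes (0.160%) wholly within exons of a gene on the same strand, so the counting kept the strands apart. The library kit as named does not record strand, and reads outside any gene were 1.03 to 1.09 times the reads on genes. Reads of mt-Nd6 and of the minus-strand tRNA genes therefore cannot be told apart from reads of opposite-strand transcripts over the same bases. Such transcripts include the long precursor and any mRNA of a neighbor that reaches into the gene. On chromosome M, mt-Co1 ends at 6872 and mt-Ts1 starts at 6870, while mt-Nd5 ends at 13565 and mt-Nd6 starts at 13552. The ratios below that use mt-Nd6 or tRNA genes carry the same limit.

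Per kb of gene length, mt-Co1 had the highest median of the 37 members over the 4 libraries, at 957 normalized CPM per kb, followed by mt-Nd1 at 834, mt-Rnr2 at 739, the tRNA gene mt-Ts1 at 673, mt-Rnr1 at 654 and mt-Cytb at 399. The ranges of these 6 genes over the libraries overlapped, with mt-Co1 from 512 to 1009 and mt-Nd1 from 319 to 1311. Within single libraries mt-Cytb was below mt-Co1, mt-Nd1 and mt-Rnr2 in all 4, and mt-Rnr1 below mt-Rnr2 and mt-Co1 in all 4, while the order of mt-Co1, mt-Nd1 and mt-Rnr2 changed between libraries. mt-Nd2 and mt-Nd4 followed at 216 and 211 per kb, in an order that also changed, then mt-Nd6 at 143, mt-Tp at 106, mt-Nd5 at 63.8, mt-Co3 at 61.7, mt-Co2 at 29.1, mt-Atp6 at 15.9 and mt-Nd3 at 14.4, with mt-Nd4l and mt-Atp8 at 0 and the other 20 tRNA genes at 21.8 (mt-Tq) or below. This order depended on the copied interval. With the counts of the identical copies added, the medians were 249 for mt-Co3, 166 for mt-Co2, 39.3 for mt-Atp6 and 22.6 for mt-Nd3. All counts of mt-Nd4 and mt-Co1, divided by the bases outside the copies alone, gave medians of 578 and 1392. Counts inside the copied part are included, so these are upper bounds for the part outside it. That median of mt-Nd4 was above the one of mt-Cytb, but in KO 2 mt-Nd4 was below it, at 221 against 281.

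**Figure D3:**
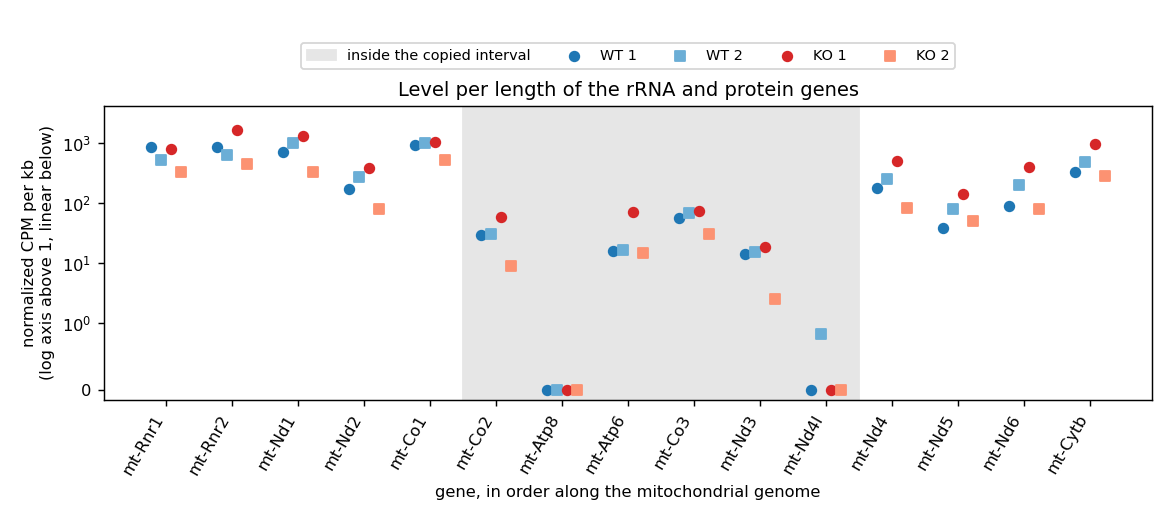
Normalized CPM per kb of the rRNA and protein genes in order along the mitochondrial genome (log axis above 1, linear below), 1 point per library. The shaded genes lie wholly inside the interval with a near-identical copy on chromosome 1, mt-Atp8 by position alone. The shaded genes reach at most 73.5 per kb, while the unshaded genes run from 37.4 to 1622.

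The protein genes with the lowest levels were mostly those of the copied interval, although mt-Nd5, outside it, lay in the same range as mt-Co3. The 6 protein genes wholly inside it (mt-Co2, mt-Atp8, mt-Atp6, mt-Co3, mt-Nd3 and mt-Nd4l) had medians of 14.9, 15.5, 38.1 and 5.72 normalized CPM per kb in library order. Among them mt-Atp8 is placed by position alone, without an annotated copy, and its lack of counts lowers these medians. The 5 protein genes wholly outside it had medians of 170, 262, 392 and 78.9, and the 2 that reach into it, mt-Co1 and mt-Nd4, had 543, 625, 747 and 296. This comparison of levels is a description of these genes, and the part of the copy in the low levels was not tested.

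The nuclear copies received counts of their own. Gm28661 had 344, 339, 651 and 101 counts in library order, so that it held 84.1%, 80.5%, 75.9% and 74.3% of the counts on mt-Co2 and its copy. Gm28437 had 272, 856, 1184 and 257, or 65.4%, 79.9%, 79.6% and 65.2% of the counts on mt-Co3 and its copy. Gm10925 had 35, 75, 312 and 82, against 36, 44, 251 and 56 on mt-Atp6, with the libraries in the same order. Gm29216 had 268, 523, 730 and 161. For the pair of mt-Nd3 the copy Gm28438 had 15, 5, 32 and 2 counts, while Gm28439 stayed at 2 to 20 beside mt-Nd4 and Gm10222 at 0 or 1 beside mt-Nd4l. Copies of lower identity on other chromosomes had 0 to 4 counts where they were annotated as a mitochondrial pseudogene, such as Gm13340 with 0, 1, 4 and 1. The split between a mitochondrial gene and an identical copy is uncertain in counting of this kind, and the values of these 7 members and of their copies are to be read together. Reads with several alignments were 4.16% to 4.60% of all reads and are in neither count. In library order they were 50.5, 34.9, 19.6 and 49.5 times the counts on all 37 mitochondrial genes. How many of them came from mitochondrial transcripts was not tested.

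**Figure D4:**
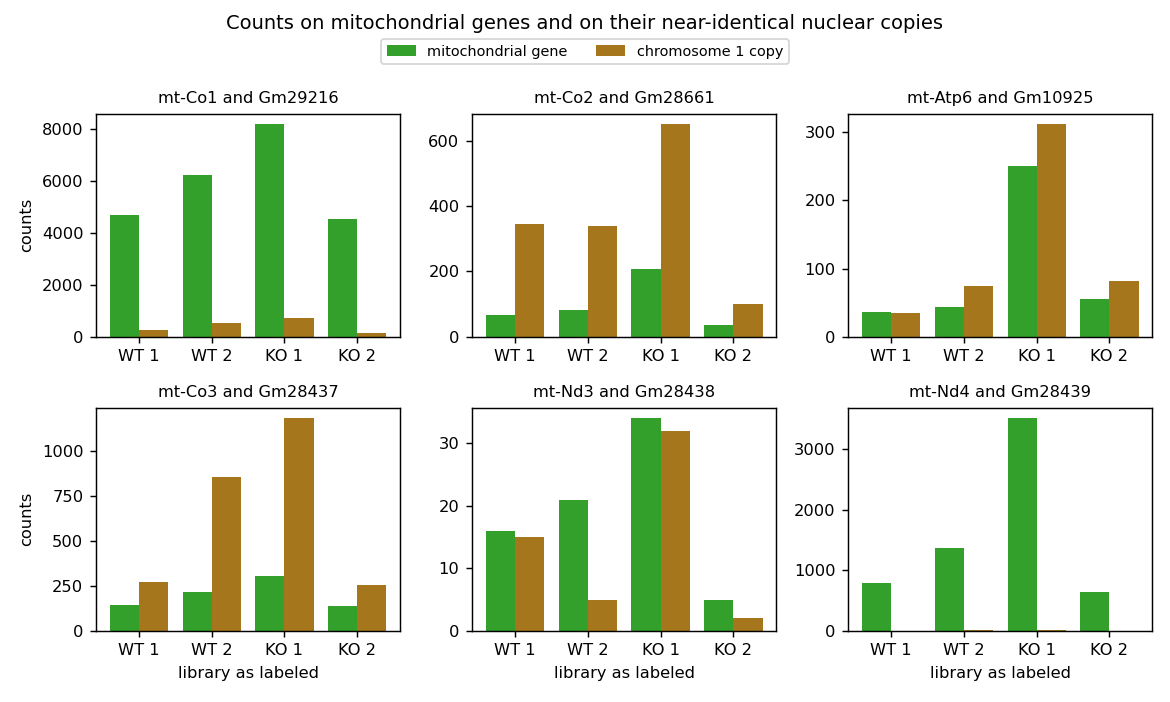
Counts on 6 mitochondrial genes (green) and on their near-identical copies on chromosome 1 (brown) in each library, with a separate axis for each pair. The copy exceeded the mitochondrial gene in all libraries for mt-Co2 and mt-Co3, and it stayed at 730 or less beside at least 4536 for mt-Co1.

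Ratios within the mitochondrial transcripts need no scaling between libraries. Of 9 ratios computed 3 were part of the design, and the 6 others were chosen later. The ratio of rRNA to protein counts was 0.713, 0.371, 0.595 and 0.558 in library order, where the libraries labeled WT spanned both of those labeled KO (difference of 0.16 in log2, two-sided exact permutation p = 1). Without WT 2 that difference was -0.31. The ratio of tRNA to protein counts was 0.0200, 0.0154, 0.0110 and 0.00910, lower in both libraries labeled KO by 0.81 in log2 (exact permutation p = 0.333, the smallest that 2 against 2 allows). With the plus-strand tRNA genes alone, on 19 counts, it was 0.28 higher. The ratio of mt-Nd6 to the other 12 protein genes was 0.0150, 0.0266, 0.0378 and 0.0232, and the groups overlapped (difference of 0.57 in log2, exact permutation p = 0.667).

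Among the 6 ratios chosen later, that of mt-Rnr2 to mt-Rnr1 was 1.67, 1.98, 3.39 and 2.27, higher in both libraries labeled KO by 0.61 in log2. The ratio of mt-Cytb to mt-Co1 was 0.260, 0.353, 0.708 and 0.406, also higher in both, and that of mt-Ts1 to mt-Co1 was 0.0363, 0.0318, 0.0279 and 0.0115, lower in both. The ratio of mt-Tp to mt-Cytb was 0.0172, 0.0145, 0.00880 and 0.0141, lower in both, with KO 2 close to WT 2. The groups overlapped for mt-Nd6 to mt-Nd5 (0.661, 0.723, 0.793 and 0.448) and for mt-Nd1 to mt-Rnr2 (0.488, 0.952, 0.489 and 0.442). In all, 5 of the 9 ratios had groups that did not overlap, each with an exact permutation p of 0.333 and a Benjamini-Hochberg adjusted p of 0.600, so no ratio passed.

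**Figure D5:**
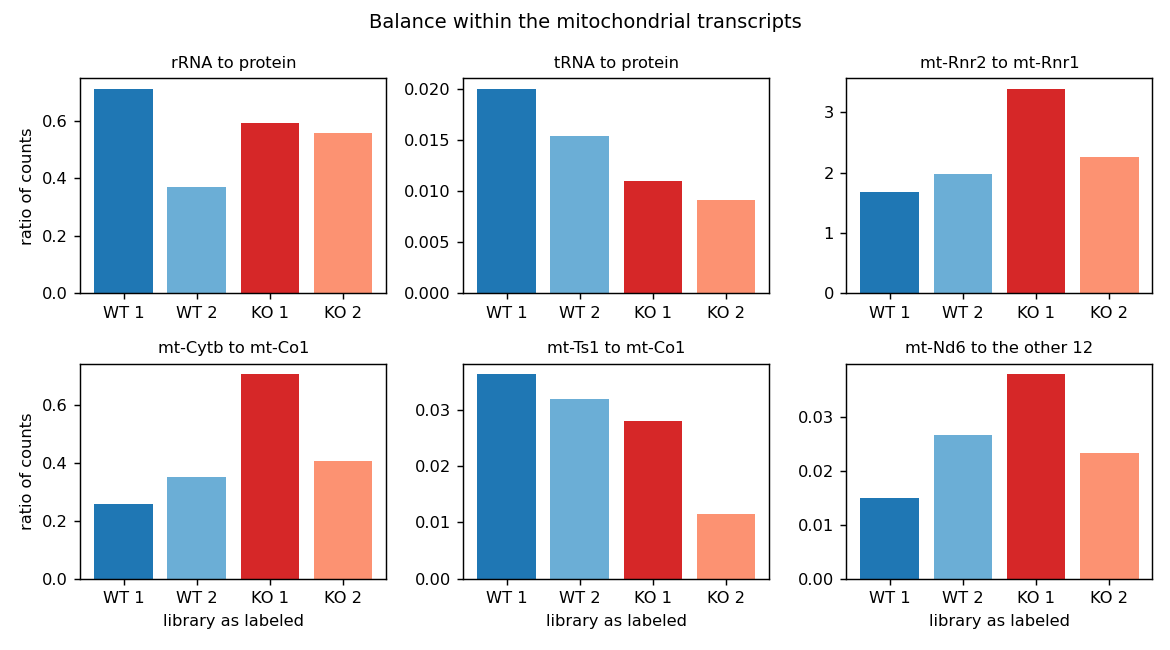
Ratios of counts within the mitochondrial transcripts in each library, with axes that start at 0. The tRNA to protein and mt-Ts1 to mt-Co1 ratios were lower, and the mt-Rnr2 to mt-Rnr1 and mt-Cytb to mt-Co1 ratios higher, in both libraries labeled KO, while the groups overlapped for rRNA to protein and for mt-Nd6 to the other 12.

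Scaled to mitochondrial protein counts, the groups did not overlap for 6 of the 15 tested members, while 27% of all genes tested did not overlap on that scale. mt-Ts1, mt-Co3 and mt-Nd3 were lower in both libraries labeled KO and mt-Atp6, mt-Nd5 and mt-Cytb higher. With the counts of the identical copies added, the groups overlapped for mt-Co3 and mt-Nd3 too, which leaves 4 of the 15. As a share of mitochondrial protein counts, mt-Cytb had 12.03% and 13.8% under the label WT against 19.8% and 18.0% under the label KO, and mt-Nd5 had 2.24% and 3.58% against 4.60% and 5.07%. mt-Co3 had 1.42% and 1.34% against 1.03% and 1.34%, where WT 2 and KO 2 were nearly equal, and with its copy 4.11% and 6.67% against 5.07% and 3.86%. None of the 15 was past the threshold on this scale, and each had an edgeR adjusted p of 0.999. The make-up of the mitochondrial counts differed as much within the groups as between them: 14.5% of counts were placed on different genes between WT 1 and WT 2 and 14.1% between KO 1 and KO 2, against 9.03% to 17.0% across the groups.

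The nuclear genes that express the mitochondrial genome were then set beside it. In lists of these genes and of the nuclear subunits of the complexes, 0 of 225 tested genes were past the threshold by the quasi-likelihood test of edgeR, against 0.574% of all genes tested, and DESeq2 called 2, Lars2 and Ppargc1a, against 3.51% of all genes. At an unadjusted p under 0.05 there were 8 (3.56%), against 13.7% of all genes. The 17 tested genes of mitochondrial DNA replication and transcription had a median log2 fold change of 0.20, which became -0.11 without WT 1, 0.30 without WT 2, -0.17 without KO 1 and 0.40 without KO 2. With all libraries kept, this median was 0.54 with library totals. It was 0.0012 with the replicate block and 0.041 with the crossed block, both described below. Tfam, which packages mitochondrial DNA and starts its transcription, had 22, 41, 170 and 63 counts in library order (log2 fold change 1.36, SE 0.66), and the rRNA methyltransferase gene Tfb1m had 8, 14, 57 and 27 (1.39, SE 0.79). For these edgeR gave adjusted p = 0.398 and 0.468.

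The 25 genes of mitochondrial RNA processing and stability had a median of 0.16, which was 0.32 without WT 2 and 0.085 without KO 1. Pnpt1, a nuclease of the mitochondrial RNA degradation machinery, had 22, 59, 153 and 176 counts (log2 fold change 1.49, SE 0.56, edgeR adjusted p = 0.290), and Fastkd2, an RNA-binding protein needed for mt-Rnr2, had 34, 56, 110 and 215 (1.28, SE 0.54, edgeR adjusted p = 0.343). Among 12 further genes of mitochondrial translation, the median was 0.29, and it was 0.13 without WT 2 and 0.068 without KO 2. Ptcd3 and Mtif2, the initiation factor, reached log2 fold changes of 1.72 and 1.81 (edgeR adjusted p = 0.257 and 0.349). The 6 regulators of mitochondrial biogenesis had a median of 0.02, which was 0.27 without KO 1 and -0.45 without KO 2. Ppargc1a, the coactivator PGC-1alpha, had 0, 0, 18 and 31 counts in library order, at least 5.37-fold higher when 3 counts are taken for each library at 0, and did not pass (edgeR adjusted p = 0.125). Gabpa, a transcription factor subunit of many nuclear genes for mitochondria, was at 1.04 in log2 (SE 0.53, edgeR adjusted p = 0.425).

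One tRNA synthetase gene stood apart in counts, and what sets its level was not tested. Lars2, which charges mitochondrial leucine tRNA, had 90766, 56026, 28465 and 23210 counts, or 2.26%, 1.31%, 0.635% and 0.431% of gene counts, more than all 37 mitochondrial genes in WT 1, WT 2 and KO 2. It held 94.3% to 99.3% of the counts on the 17 synthetase genes. Both libraries labeled KO were lower (log2 fold change -2.12, SE 0.67), short of the threshold (edgeR adjusted p = 0.224). The other 16 synthetases held 0.0160% to 0.0273% of gene counts at a median of 0.09 in log2. Over all 17 the median of -0.02 became -0.33 without WT 1, 0.40 without WT 2, 0.22 without KO 1 and -0.12 without KO 2. Yars2 had 16, 36, 131 and 59 counts (1.35, SE 0.66, edgeR adjusted p = 0.409).

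Protein genes of the mitochondrial ribosome were taken by Mrpl and Mrps symbols, which leaves out Ptcd3. They had a median log2 fold change of -0.26, with 63 of 77 below 0. Mrpl2 had -0.96 (SE 0.41) and Mrpl14 -1.09 (SE 0.47), each with an edgeR adjusted p of 0.347. The median was -0.52 without KO 1 and -0.16 without KO 2, and with scaling by library totals alone it was 0.09, with 29 of 77 below 0, or -0.30 relative to the median of all genes under that scaling. The nuclear subunits of the respiratory chain were also mostly fitted below 0, 61 of 71, beside 47.4% of all genes tested, and none of them was past the threshold. The median was -0.39 for complex I (33 of 37 below 0), -0.28 for complex III (7 of 9), -0.59 for complex IV (9 of 10) and -0.36 for complex V (12 of 15). Complex I was taken by Nduf symbols, Ndufa4 included, whose place in complex I or IV was not examined. Over these 71 genes together the median was -0.39, and it was -0.85 without KO 1 and -0.23 without KO 2. Scaling by library totals left 40 of the 71 below 0, at a median of -0.42 relative to that of all genes, against -0.45 with TMM factors. Without KO 2 the medians were -0.26, -0.015, -0.37 and -0.19 for complexes I, III, IV and V, with 5 of 9 below 0 in complex III, and without KO 1 they were -0.88, -0.71, -0.94 and -0.69. Among them Ndufa11 and Ndufa7 were at log2 fold changes of -0.94 and -0.99, Uqcr11 and Uqcrq -0.87 and -0.52, Cox6a1 and Cox8a -1.01 and -0.98, and Atp5g2 and Atp5g1 -0.86 and -0.67 (edgeR adjusted p from 0.383 to 0.642).

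Set against the nuclear subunits of the same complex, the mitochondrial subunits varied more. The ratio of mitochondrial to nuclear counts for complex I was 0.189, 0.322, 0.551 and 0.185 in library order. For complex III it was 0.187, 0.291, 0.650 and 0.232, and for complex IV 0.314, 0.404, 0.480 and 0.386. In these 3 complexes KO 1 had the highest ratio and the groups overlapped. For complex V, where mt-Atp6 held all mitochondrial counts, the ratio was 0.00193, 0.00189, 0.00888 and 0.00212, with KO 2 just above both libraries labeled WT and KO 1 far above them. Counts on the chromosome 1 copies are left out of all these ratios. For mt-Atp6 the copy held 49.3%, 63.0%, 55.4% and 59.4% of the counts on both in library order. The nuclear subunits of complex I held 0.525%, 0.530%, 0.592% and 0.363% of gene counts, a narrower range than the 0.0991%, 0.170%, 0.326% and 0.0670% of the mitochondrial ones.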

How the data were processed

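The authors deposited whole-number counts of reads per gene, 1 table per library, without normalization. Per the labels, reads were aligned with HISAT2 2.1.0 to mm10 and counted with HTSeq 0.11.0; the annotation, the strand setting and any trimming are not given in the sources used here. The library kit was NEBNext Ultra II RNA. Summary lines of the tables entered neither library sizes nor tests; they held 71.2% to 79.5% of reads. No column of a sample was left unmatched.

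Counts were tested in R 4.3.3 with edgeR 4.0.16 (filterByExpr, at least 10 scaled counts in 2 libraries and 15 overall; TMM factors; quasi-likelihood F test, group only, 4 libraries, two-sided). The SE is the log2 fold change divided by the square root of F. The script was tested on simulated data. Shares and ratios had exact permutation tests over libraries.

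Positions and transcripts came from GENCODE M21 (GRCm38/mm10, 1-based), to which 53292 of 55367 symbols (96.3%) matched. Copies were searched with blastn 2.17.0 among annotated nuclear transcripts and not in the whole genome, which was not used here; identical copies have at least 99% identity over 50 bases, near copies at least 95% over 200 bases. Nested genes were found with bedtools 2.31.1.

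All members are reported, with counts for protein and rRNA genes and for tRNA genes with a mean of at least 50 (mt-Ts1); counts of mt-Tp and mt-Tq were added after their values were seen. From each nuclear list the 2 genes with the smallest p are named, since none passed. The members and lists were chosen with earlier results of these data known. The alternatives were other scalings, DESeq2 1.42.0, the likelihood ratio test, no filter, a block, thinning, other denominators, and each library left out.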

Additional observations from a re-analysis of the deposited data

How the results depend on the processing

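The limits are set by the libraries: 2 against 2 cannot give an exact permutation p below 0.333, low counts left 22 of 37 members untested, and intervals cover counting error. The count of members past the threshold was 0 in each of the 15 alternatives except 2, since leaving out single libraries gave 0 to 1 (mt-Ts1 without KO 1, mt-Atp6 without KO 2). A group with 1 library left was assumed to vary like the other. The median over the protein genes went from 0.19 to a range of -1.02 (without KO 1) to 0.95 (without KO 2) when single libraries were left out. With all libraries kept it also changed sign, to -0.30 with either block described below and -0.13 with scaling to mitochondrial protein counts. It was 0.58 with library totals. Over the alternatives the smallest and largest edgeR or DESeq2 adjusted p were 0.0389 and 1 for mt-Ts1 and 0.0233 and 1 for mt-Atp6. With other denominators or members left out, the shares and ratios moved by less than the replicate SD, except that the tRNA to protein difference became 0.28 with plus-strand tRNA genes alone, which held 19 counts. Adding the identical copies, chosen after seeing the data, took the members whose groups did not overlap per mitochondrial protein count from 6 to 4. Leaving out 1 of 2 libraries cannot move a difference by more than that SD, so it shows no stability; it turned the share difference to -0.18 without KO 1 and the rRNA to protein difference to -0.31 without WT 2.

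The count of nuclear list genes past the threshold was 0 and became 1 with scaling to mitochondrial protein counts (Ppargc1a), 2 without a filter, 2 with the likelihood ratio test and 2 in DESeq2 (Ppargc1a and Lars2 in all 3), with a range of 0 to 4 when single libraries were left out; the 4 without KO 2 were Cox7b, Lars2, Mtif2 and Ndufa4. Over all genes, 68 past the threshold became 583 without a filter, 556 with the likelihood ratio test, 416 in DESeq2, 134 with library totals, 115 with scaling to mitochondrial protein counts, and 113 to 1248 with a library left out. The cause was not tested.

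Equal replicate numbers are not stated to pair libraries, and the deviations of WT 1 and KO 1 from their group means correlated at -0.179 over 11837 genes. With the replicate block 0 members, 0 nuclear list genes and 215 of all genes passed, and the log2 fold changes of mt-Nd2, mt-Co2 and mt-Nd4 turned to -0.30, -0.33 and -0.067. With the crossed replicate block, added after seeing the data, 0 members, 1 nuclear list gene and 647 of all genes passed, and the same 3 members were at -0.30, -0.30 and -0.065.

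Of 225 values of the 15 tested members under the alternatives 34 changed sign, none of which was past the threshold in the 4-library test. Library totals moved the median of all genes from 0.05 to 0.39 and scaling to mitochondrial protein counts to 0.39. Library totals turned mt-Rnr1 to 0.092, mt-Nd1 to 0.33, mt-Co1 to 0.027, mt-Co3 to 0.11 and mt-Tp to 0.35, all below that median. Upper-quartile factors turned mt-Nd1 to 0.035 and mt-Tp to 0.056. Scaling to mitochondrial protein counts turned mt-Nd2 to -0.13, mt-Co2 to -0.13 and mt-Tp to 0.067. With single libraries left out, the log2 fold changes ranged from -1.10 to 0.17 for mt-Rnr1, -0.77 to 1.10 for mt-Rnr2, -1.39 to 0.61 for mt-Nd1, -1.46 to 0.75 for mt-Nd2, -0.91 to 0.041 for mt-Co1, -1.71 to 0.95 for mt-Co2, -0.16 to 2.10 for mt-Atp6, -1.02 to 0.21 for mt-Co3, -2.49 to 0.33 for mt-Nd3, -1.39 to 1.17 for mt-Nd4, -0.23 to 1.28 for mt-Nd5, -0.88 to 1.42 for mt-Nd6, -0.51 to 1.23 for mt-Cytb, -0.66 to 0.41 for mt-Tp and -2.47 to -0.24 for mt-Ts1.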
